A study of Mus musculus with 4 samples.

Results

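Neurexins, neuroligins and leucine-rich repeat transmembrane (LRRTM) proteins join the 2 sides of a synapse, and the RNA of 9 of their genes was followed in RNA immunoprecipitates of CPEB2. The genes were Nrxn2 and Nrxn3, Nlgn1, Nlgn2 and Nlgn3, and Lrrtm1, Lrrtm2, Lrrtm3 and Lrrtm4. They were taken by the gene name that the array annotation gives to a probe, and they held 23 of the 55681 probes and 9 of the 24185 gene symbols on the array. CPEB2 IgG or control IgG was used on lysate of cortex and hippocampus from male C57BL/6 mice aged 8 weeks, with no transgene or treatment named in the labels. Each antibody was used in 2 independent experiments, and in each experiment the lysate was divided between the antibodies, which gave 4 one-color arrays in 2 pairs. The description field of both CPEB2 IgG samples reads CPEB3 IgG, although the titles and the protocol name CPEB2. The number of mice behind a lysate is not given, so p-values speak for these 2 pairs of immunoprecipitates and not for a number of mice.

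Neurexins sit mainly on the presynaptic side and are made in long and short forms from different promoters and with extensive alternative splicing. Neuroligins and LRRTMs sit on the postsynaptic side and bind neurexins across the cleft. NLGN1 is best known at excitatory synapses, NLGN2 at inhibitory synapses and NLGN3 at both, and the LRRTMs are known for excitatory synapses and AMPA receptors. CPEB2 is an RNA-binding protein of the cytoplasmic polyadenylation element-binding family, which bind U-rich cytoplasmic polyadenylation elements (CPEs) in 3'-UTRs and regulate translation. RNA immunoprecipitation recovers RNA with the protein that an antibody captures, and the RNA recovered with control IgG is the background. All comparisons below are of CPEB2 IgG with control IgG at the same probe. The lysate mixes all cells of the tissue, so an RNA present in fewer cells and less of that RNA per cell cannot be told apart.

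Probes of 60 bases that carry a CPE are shown first, since this is the element the family binds. The letters TTTTAT and TTTTAAT were searched on the sense strand only, as the probes are written, and the second of them can overlap the poly(A) signal AATAAA. They were found in 3 of the 23 probes of these genes and in 4.54% of all 55681 probes. The poly(A) signals AATAAA or ATTAAA were found in 2 of the 23 probes, those at base 7861 of Nrxn3 and base 5597 of Lrrtm2, and in 13.7% of all probes. Each line below gives 30 bases of a probe from the deposited annotation, with the motif in capitals.
Nrxn3 base 2218: tgggggTTTTAATgttttaaaTTTTATatt
Nlgn3 base 6050: cccccaggttgcTTTTATgttcgttttgtt
Lrrtm3 base 2849: tactgcatagggTTTTATctacttgttcca
Nrxn3 base 7861: gatatgcttagcAATAAAatgttcttccca
Among the 3 probes with a CPE, those of Nrxn3 and Nlgn3 were not past the threshold (log2 fold change 0.32 and 0.18) and that of Lrrtm3 was (1.80). A probe samples a short stretch of its RNA, so a probe without these letters says nothing about the rest of the transcript.

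The values are spot intensities, which were expressed as log2 relative to the 75th percentile of each array. On each array 68.4% to 74.1% of spots were well above background, and none was saturated. Precision is limited by having 4 arrays. For 2 against 2 arrays, a two-sided exact permutation test at one probe that ignores the pairs has a smallest p of 0.333. Therefore limma with the experiment as a block was fitted to all 41137 probes well above background on at least 2 arrays. It moderates the variance of each probe with the variances of all probes in the fit. The SEs and p-values below thus rest largely on a pooled variance. At Lrrtm1 the SD between the experiments was 0.0071 and the SE was 0.28. All arrays were scanned on one slide and each antibody occupied its own positions there, so position and antibody cannot be told apart. Over all probes tested, 5228 were higher with CPEB2 IgG and 6095 were lower, both at an adjusted p under 0.05, and the median log2 fold change was -0.20. Centring each array on its median moved that median up by 0.23 and gave 7500 higher and 5594 lower (57.3% higher among the calls in place of 46.2%). Quantile normalization moved it up by 0.16, centring within bins of probe GC content by 0.24 and normexp background correction by 0.13, and another set of probes behind the percentile moved it to -0.31.

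To examine which adhesion RNAs were recovered with CPEB2 IgG, each of the 23 probes was compared between the antibodies. Of the 22 probes tested, 6 were higher with CPEB2 IgG (27.3%), while 12.7% of all probes tested were higher. The 6 probes lay in Nrxn2, Nrxn3, Nlgn3, Lrrtm2, Lrrtm3 and Lrrtm4. None of the 22 was lower by limma, while 14.8% of all probes tested were lower, both at an adjusted p under 0.05. At an unadjusted p under 0.05, 9 of the 22 were higher and none was lower. At that unadjusted level 16972 of all 41137 probes tested passed in either direction, a count that does not separate higher from lower. The median log2 fold change over the 22 probes was 0.64, and 18 of them were above 0 in both experiments, as were 29.3% of all probes tested. Both CPEB2 IgG arrays lay above both control IgG arrays at 14 of the 22 probes, and at 26.4% of all probes tested. All 22 were well above background on all 4 arrays, so no probe entered the test through one antibody alone. The remaining probe, at base 4343 of a Lrrtm4 transcript, was well above background on 1 CPEB2 IgG array only and was not tested.

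**Figure D1:**
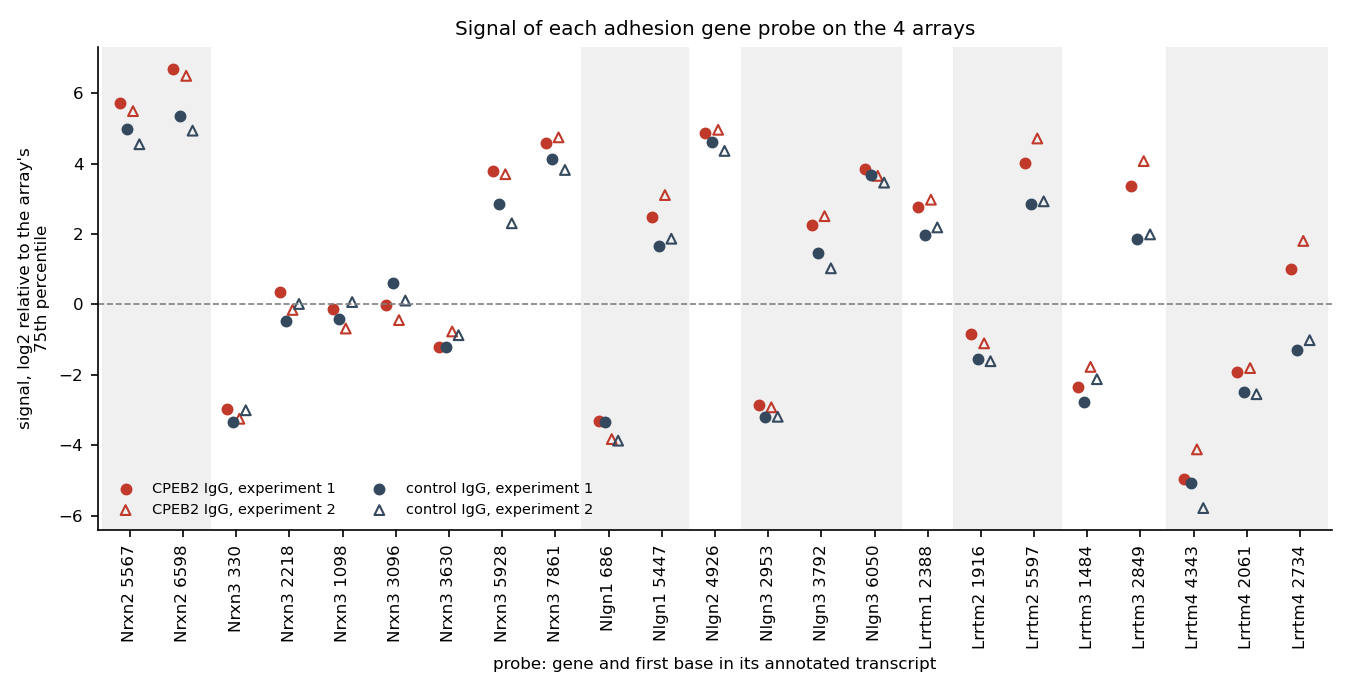
Signal of each of the 23 probes on the 4 arrays, as log2 relative to the 75th percentile of the array (y axis), with CPEB2 IgG in red, control IgG in dark blue, circles for experiment 1 and triangles for experiment 2. Probes are named by gene and by the first base of the probe in its annotated transcript, and shading separates genes. Both red points lay above both blue points at 14 of the 22 probes tested, with the widest gap at base 2734 of Lrrtm4.

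By family, 2 of 9 neurexin probes, 1 of 6 neuroligin probes and 3 of 7 tested LRRTM probes were higher. The median log2 fold change was 0.32 for the neurexin, 0.37 for the neuroligin and 0.79 for the LRRTM probes. No test compares the families, because probes of one gene share their target. When the brightest probe stood for each gene, 6 of the 9 genes were higher, and 21.2% of the 19698 genes tested were higher and 20.4% lower. These were Nrxn2, Nlgn1, Lrrtm1, Lrrtm2, Lrrtm3 and Lrrtm4, and none of the 9 was lower, also at an unadjusted p under 0.05 by limma. With the mean of the probes of each gene 5 were higher, since Nlgn1 was not past the threshold (adjusted p = 0.128). The methods of the study set an enrichment above 1.5-fold, a raw signal above 1000 and a CPE in the 3'-UTR, with no test. The first 2 thresholds were applied here, as a mean over both experiments and as the signal on at least 1 CPEB2 IgG array, and the CPE criterion was not applied. Some probe of 8 of the 9 genes passed both, all but Nlgn2, as did a probe of 13.9% of the 24164 genes with values. A gene with several probes has more chances to pass, and the 9 genes had 1 to 7 probes each.

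**Figure D2:**
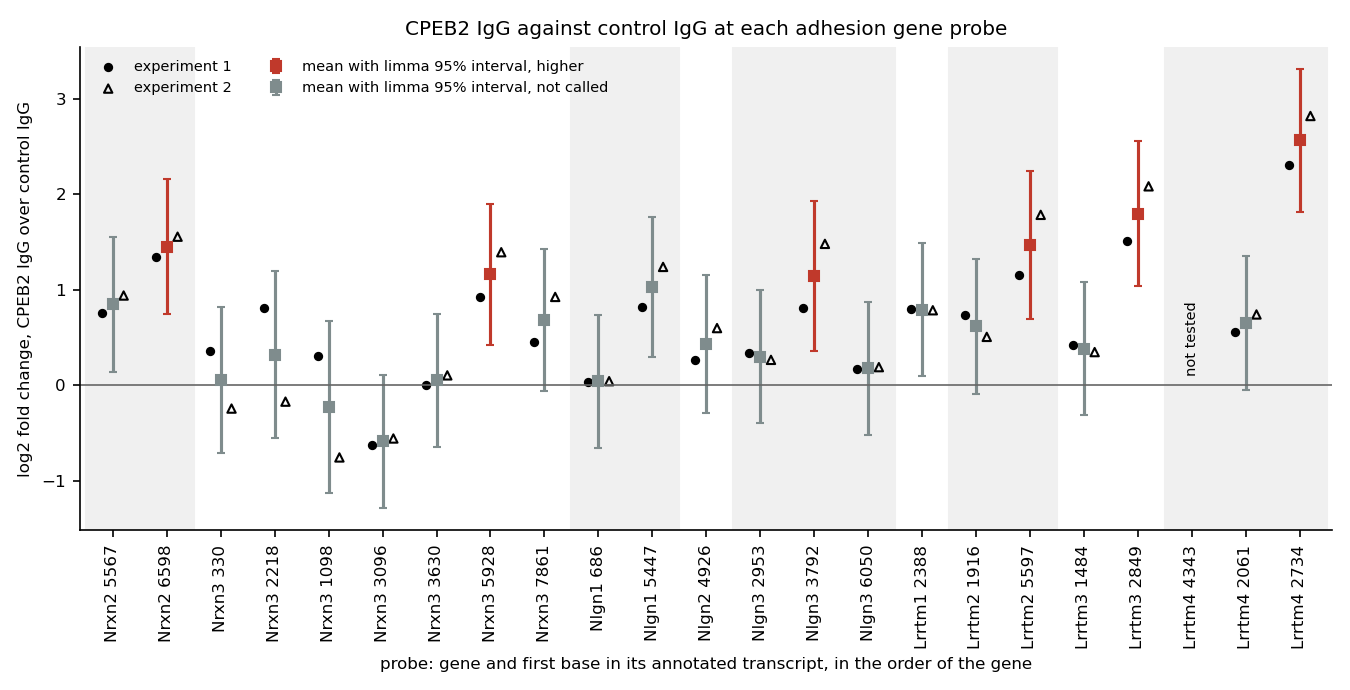
Log2 fold change of CPEB2 IgG over control IgG (y axis) at each probe, with the limma mean and 95% confidence interval as squares and bars, red where the adjusted p was under 0.05, and the 2 experiments as black circles and open triangles. The probe at base 2734 of Lrrtm4 had the highest mean, 2.56, and that at base 3096 of Nrxn3 the lowest, -0.59.

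Nrxn2 encodes a neurexin of the presynaptic membrane. Its 2 probes lie on the plus strand of chromosome 19 in the mm9 build and belong to the same transcript, NM_001205234. At base 6598 (A_55_P1954061, chr19:6533156-6533215) the raw signal was 43136 and 37639 with CPEB2 IgG in experiments 1 and 2, and 17946 and 13006 with control IgG. Both CPEB2 IgG arrays were above both control arrays, and the RNA was 2.74-fold higher, with a log2 fold change of 1.45 ± 0.28 (moderated SE from limma, n = 2 pairs; limma adjusted p = 0.0186). At base 5567 (A_55_P1954067, chr19:6532125-6532184) the raw signal was 22240 and 18796 with CPEB2 IgG, against 13971 and 9950 with control IgG. The groups did not overlap there either, and the log2 fold change of 0.85 ± 0.28 was not past the threshold (adjusted p = 0.0777). It passed in 7 of 12 other settings, among them quantile normalization (1.07, adjusted p = 0.0283) and centring within GC bins (1.34, adjusted p = 0.0190). It did not pass with no scaling (0.79, adjusted p = 0.0865) or with another set of probes behind the percentile (0.74, adjusted p = 0.118). With 1 array left out its log2 fold change was 0.63 to 1.06. The call at base 6598 was lost when CPEB2 IgG replicate 1, CPEB2 IgG replicate 2 or control IgG replicate 2 was left out (adjusted p = 0.0546, 0.0613 and 0.0911), and it was kept without control IgG replicate 1 (0.0457). Such fits on 3 arrays have no block and assume that the lone array varies like the others.

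Nrxn3, another neurexin, had 7 probes on the plus strand of chromosome 12, and they differed in direction. The probe at base 5928 of NM_001198587 (A_66_P127136, chr12:91571382-91571441) read 5808 and 5426 with CPEB2 IgG, against 3230 and 2098 with control IgG. This was the 1 Nrxn3 probe past the threshold, 2.24-fold higher (log2 1.16 ± 0.29, adjusted p = 0.0387), with no overlap of the groups. Its call was lost without any one of the 4 arrays (adjusted p between 0.0642 and 0.195) and with another set of probes behind the percentile (0.0521). Further along the same transcript, at base 7861 (A_55_P2054643, chr12:91573315-91573374), the signal was 9968 and 11211 with CPEB2 IgG, against 7731 and 5996 with control IgG. The CPEB2 IgG arrays were again the higher ones, but the log2 fold change of 0.69 ± 0.30 was not past the threshold (adjusted p = 0.143).

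None of the other 5 Nrxn3 probes passed the test. At base 3096 of NM_172544 (A_55_P1963889, chr12:91407414-91407473) the signal was 412 and 307 with CPEB2 IgG, against 670 and 458 with control IgG. This was the only one of the 22 probes at which both CPEB2 IgG arrays lay below both control arrays, with a log2 fold change of -0.59 ± 0.28 (adjusted p = 0.175). With normexp background correction it was past the threshold as lower (-0.52, adjusted p = 0.0466). At base 3630 of the same transcript (A_55_P2054640, chr12:91522030-91522089) the signal was 180 and 245 with CPEB2 IgG, against 190 and 232 with control IgG. The groups overlapped and the log2 fold change was 0.05 ± 0.28. The experiments went opposite ways at the remaining 3 probes. At base 330 of NM_001198587 (A_55_P2105403, chr12:90033278-90033337) the log2 fold change was 0.36 in experiment 1 and -0.24 in experiment 2. At base 2218 of ENSMUST00000110138 (A_55_P2105406, chr12:90089234-90089293), the probe with 2 CPE matches, it was 0.81 and -0.17. At base 1098 of NM_001252074 (A_55_P2165088, chr12:91052021-91052080) it was 0.31 and -0.75. Their signals lay between 43.7 and 532.2 on the 4 arrays, and adjusted p ranged from 0.539 to 0.908.

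Nlgn1 encodes a postsynaptic partner of neurexins and had 2 probes on the minus strand of chromosome 3. At base 5447 of NM_138666 (A_52_P258546, chr3:25330886-25330945) the signal was 2352 and 3599 with CPEB2 IgG, against 1412 and 1548 with control IgG. The groups did not overlap, and the log2 fold change was 1.03 ± 0.29, just short of the threshold over all probes (adjusted p = 0.0518). In the fit on the brightest probe of each gene the same probe passed it (adjusted p = 0.0305). Over all probes it passed in 5 of 12 other settings, among them median centring (log2 1.26, adjusted p = 0.0141). It did not pass with quantile normalization (0.91, adjusted p = 0.0513) or with centring within GC bins (0.81, adjusted p = 0.0780). With 1 array left out its log2 fold change was 0.72 to 1.34. The probe at base 686 of BC005523 (A_55_P2061640, chr3:25599157-25599216) was dim, with 42.0 and 29.5 against 43.4 and 29.0. Its groups overlapped and its log2 fold change was 0.04 ± 0.28.

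Nlgn2, the neuroligin of inhibitory synapses, had 1 probe, at base 4926 of NM_198862 on the minus strand (A_55_P1960989, chr11:69636641-69636700). The signal was 12251 and 13014 with CPEB2 IgG, against 10782 and 8724 with control IgG. The CPEB2 IgG arrays were both higher, by 0.43 ± 0.29 on the log2 scale (adjusted p = 0.312), with a 95% confidence interval of -0.28 to 1.15. That interval includes both no change and a change as large as that of Nlgn1.

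Nlgn3 had 3 probes on the plus strand of chromosome X. At base 3792 of NM_172932 (A_55_P1960994, chrX:98516599-98516658) the signal was 2004 and 2375 with CPEB2 IgG, against 1212 and 865 with control IgG. The RNA was 2.21-fold higher there (log2 1.15 ± 0.31, adjusted p = 0.0470), with no overlap. This call was lost without any one of the 4 arrays (adjusted p between 0.0632 and 0.181), with centring within GC bins (0.0617), with no scaling (0.0513) and with the other percentile (0.0610). At base 2953 of the same transcript (A_55_P1961002, chrX:98515760-98515819) the signal was 57.4 and 55.1 with CPEB2 IgG, against 48.2 and 46.5 with control IgG. The groups were apart but close, with a log2 fold change of 0.30 ± 0.28 (adjusted p = 0.467). The brightest Nlgn3 probe, at base 6050 of ENSMUST00000065858 (A_55_P2335903, chrX:98518888-98518947), read 6022 and 5251 with CPEB2 IgG, against 5660 and 4672 with control IgG. Its groups overlapped and its log2 fold change was 0.18 ± 0.28 (adjusted p = 0.667). It is also the only one of the 23 probes that shared a run of 20 bases with probes of other genes, 2 probes of 2 other gene names. The call for Nlgn3 thus depended on the probe that stood for it.

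**Figure D3:**
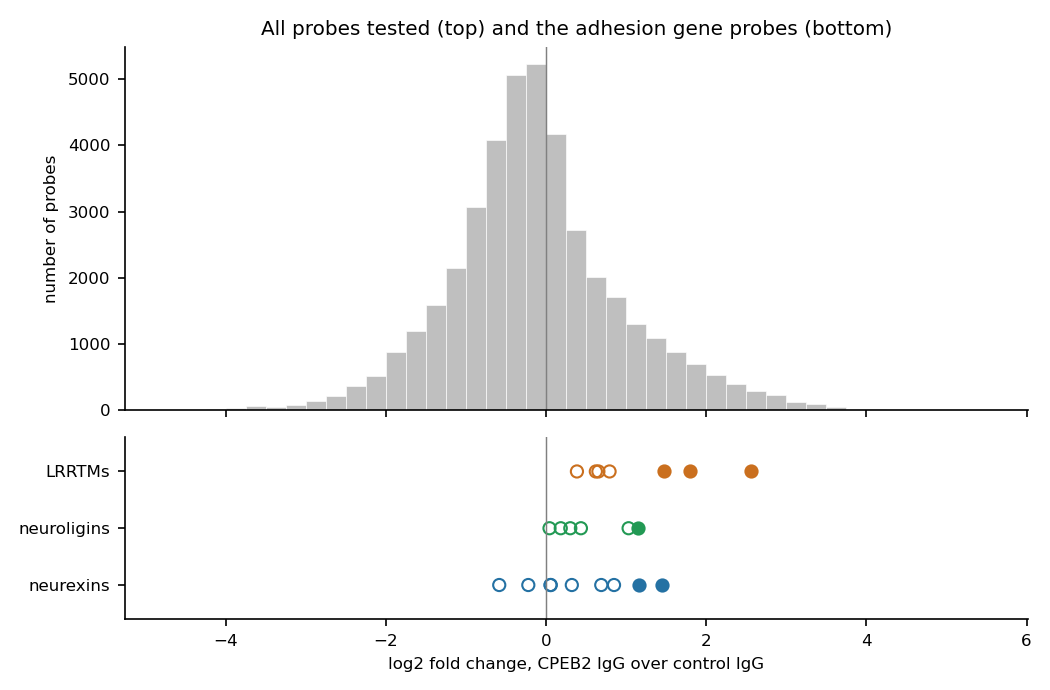
Number of probes at each log2 fold change of CPEB2 IgG over control IgG among the 41137 probes tested (top, bins of 0.25), and the 22 tested probes of the adhesion genes by family (bottom), filled where the adjusted p was under 0.05. The distribution of all probes has its median at -0.20, and the 7 LRRTM probes all lay above 0.

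LRRTMs are single-pass membrane proteins with leucine-rich repeats outside the cell. All 7 tested LRRTM probes were above 0 in both experiments. Lrrtm4, which encodes a receptor for heparan sulfate proteoglycans, had the highest log2 fold change of the 22 probes. At base 2734 of ENSMUST00000126399 on the plus strand (A_52_P424206, chr6:80759820-80759879) the signal was 840 and 1458 with CPEB2 IgG, against 180 and 210 with control IgG. The lower CPEB2 IgG array was far above the higher control array, and the RNA was 5.91-fold higher (log2 2.56 ± 0.30, 95% confidence interval 1.82 to 3.31, adjusted p = 0.00707). This call was kept without each of the 4 arrays in turn (adjusted p between 0.0229 and 0.0436), and it was lost without a filter on dim probes (0.0961), where limma called no probe of the array and 16093 had an unadjusted p under 0.05. At base 2061 of ENSMUST00000133918 (A_55_P2165210, chr6:80759124-80759183) the signal was 110 and 119 with CPEB2 IgG, against 78.8 and 72.5 with control IgG. The groups did not overlap, and the log2 fold change of 0.65 ± 0.28 was not past the threshold (adjusted p = 0.143), except with centring within GC bins (1.04, adjusted p = 0.0410). The probe that was not tested lies upstream in the gene, at base 4343 of ENSMUST00000136421 (A_55_P2102489, chr6:79975812-79975871). Its signal was 13.5 and 24.1 with CPEB2 IgG, against 13.1 and 7.70 with control IgG, and it was not well above background on either control array. Only 1 of the 2 CPEB2 IgG arrays measured it, so no fold change is given.

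Lrrtm3 lies on the minus strand of chromosome 10. At base 2849 of NM_178678 (A_51_P488180, chr10:63392188-63392247), the probe with a CPE match shown above, the signal was 4313 and 7028 with CPEB2 IgG, against 1601 and 1685 with control IgG. Both CPEB2 IgG arrays were above both control arrays, and the RNA was 3.48-fold higher (log2 1.80 ± 0.30, adjusted p = 0.0133). The call was lost only without control IgG replicate 1 among the single arrays left out (adjusted p = 0.0577). At base 1484 (A_66_P134355, chr10:63551133-63551192) the signal was 82.5 and 122 with CPEB2 IgG, against 65.3 and 97.4 with control IgG. The groups overlapped there because both arrays of experiment 2 were brighter, and the log2 fold change was 0.38 ± 0.28 (adjusted p = 0.354).

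Lrrtm2, known as a high-affinity neurexin ligand, lies on the minus strand of chromosome 18. At base 5597 of NM_178005 (A_55_P2084413) the signal was 6761 and 10959 with CPEB2 IgG, against 3217 and 3232 with control IgG. The groups were apart, and the RNA was 2.77-fold higher (log2 1.47 ± 0.31, adjusted p = 0.0230). Without CPEB2 IgG replicate 2, control IgG replicate 1 or control IgG replicate 2 the call was lost (adjusted p = 0.0622, 0.0935 and 0.0792), and without CPEB2 IgG replicate 1 it was kept (0.0282). At base 1916 (A_55_P2084418) the signal was 235 and 194 with CPEB2 IgG, against 150 and 139 with control IgG. The CPEB2 IgG arrays were both higher, with a log2 fold change of 0.62 ± 0.28 that was not past the threshold (adjusted p = 0.161).

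Lrrtm1 had 1 probe, at base 2388 of NM_028880 on the plus strand (A_55_P2019784, chr6:77195379-77195438). The signal was 2837 and 3284 with CPEB2 IgG, against 1730 and 1935 with control IgG. Both experiments gave nearly the same log2 fold change, 0.80 and 0.79. The mean of 0.79 ± 0.28 was not past the threshold over all probes (adjusted p = 0.0896), and it was past it in the fit on the brightest probe of each gene (adjusted p = 0.0492).

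In the order of the highest probe of each gene, Lrrtm4 (2.56) was followed by Lrrtm3 (1.80), Lrrtm2 (1.47) and Nrxn2 (1.45), then Nrxn3 (1.16), Nlgn3 (1.15), Nlgn1 (1.03), Lrrtm1 (0.79) and Nlgn2 (0.43). The 95% confidence intervals of all neighbours in this order overlapped. That of Lrrtm4, 1.82 to 3.31, lay above those of Nlgn1 (0.30 to 1.76), Lrrtm1 (0.10 to 1.49) and Nlgn2 (-0.28 to 1.15). These are fold changes, and signals were not compared between probes. The 3 genes whose brightest probe was most like that of Lrrtm4 over the 4 arrays, each centred on its own mean, were Hecw2 (distance 0.062 on the log2 scale), A830018L16Rik (0.067) and Zfp830 (0.078), among 17812 genes. This likeness rests on 4 arrays and mainly on the difference between the antibodies. Hecw2 was 2.31 and 2.73 higher in the 2 experiments, beside 2.31 and 2.82 for Lrrtm4.

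The change along a transcript was examined in the 6 transcripts of these genes with at least 2 tested probes. The log2 fold change was higher at the last than at the first probe in 6 of 6. In 74.7% of the 4185 such transcripts on the array the last probe was likewise the higher one, with a median difference of 0.50. In Lrrtm3 the difference between base 2849 and base 1484 was 1.41 (95% confidence interval 0.61 to 2.21; limma adjusted p = 0.0356 over 4185 transcripts), with 1.09 in experiment 1 and 1.73 in experiment 2. This was the only one of the 6 past the threshold, while 25.4% of all such transcripts were higher at the last probe and 2.56% lower. The difference was 0.85 in Lrrtm2 (adjusted p = 0.129), 0.84 in Nlgn3 (0.116) and 0.60 in Nrxn2 (0.143). It was 0.64 in NM_172544 (0.128) and 0.63 in NM_001198587 (0.266) of Nrxn3.

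The 2 probes of Nrxn2, of Nlgn3 and of Lrrtm2 were as far apart on the chromosome as in the transcript (1031, 839 and 3681 bases), so no intron lay between them. Those of Lrrtm3 were 1365 bases apart in the transcript and 158945 on the chromosome, with an intron between them. Exons and UTRs were not annotated, because no mm9 gene models were used here. First and last probes also differed in signal. On the 4 arrays the first and last probes read 65.3 to 122 and 1601 to 7028 in Lrrtm3, and 46.5 to 57.4 and 865 to 2375 in Nlgn3. They read 139 to 235 and 3217 to 10959 in Lrrtm2, and 43.7 to 52.9 and 5996 to 11211 in NM_001198587. In Nrxn2 both probes were bright, and in NM_172544 the last probe was the dimmer one. The part of signal level in these differences was not tested. Base composition differed between first and last probes as well. The last 30 bases of both Nrxn2 probes are shown with G and C in capitals, because they differed more in GC content than the first and last probes of the other 5 transcripts.
Nrxn2 base 5567: aGtCCaGGCaCCCCaCtGCCaGCtGCtCCt
Nrxn2 base 6598: GGaaaaaGaaaaCaaaaaCtttCCaaattC
The whole probes held 55.0% and 38.3% G or C. After centring within GC bins the difference in Nrxn2 fell from 0.60 to 0.23, that in Lrrtm3 from 1.41 to 0.97 (adjusted p = 0.0444), and that in NM_001198587 of Nrxn3 turned to -0.09. Over all 4185 transcripts the median difference with this centring was 0.34, and the last probe was the higher one in 66.9%. The part of base composition in these differences was not tested further.

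**Figure D4:**
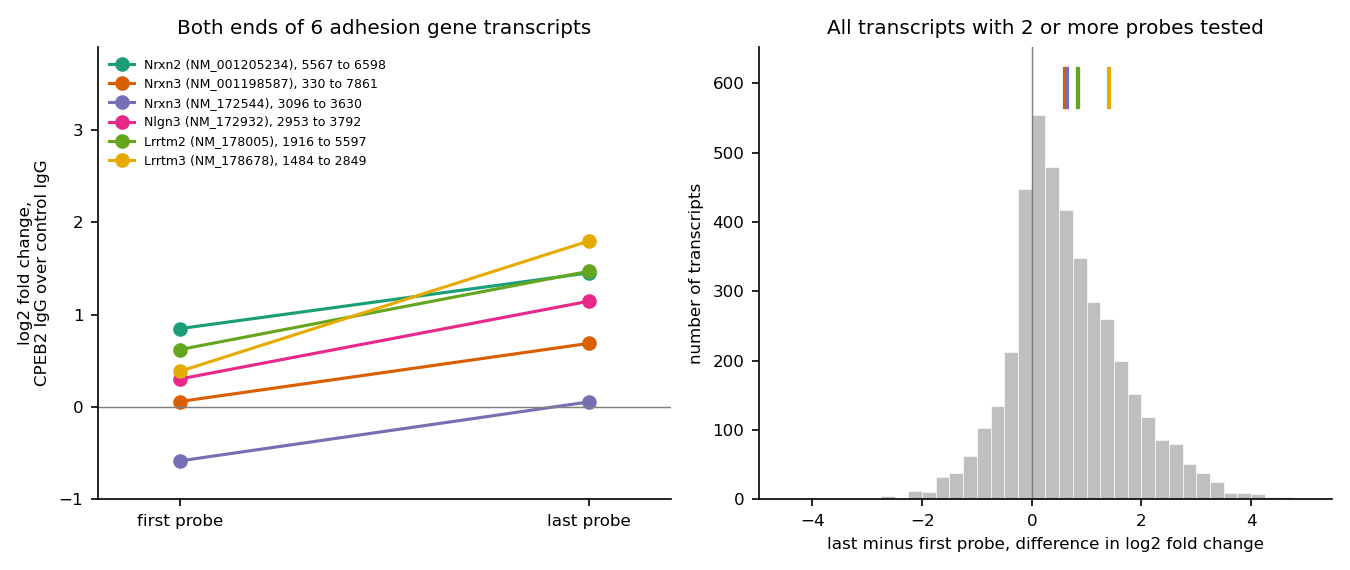
Left, log2 fold change of CPEB2 IgG over control IgG at the first and the last tested probe of 6 adhesion gene transcripts, with the first bases of both probes in the key. Right, the difference between last and first probe over all 4185 transcripts with at least 2 tested probes (bins of 0.25), with the 6 transcripts as colored ticks. All 6 lines rise, and the ticks lie from 0.60 to 1.41, above the overall median of 0.50.

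To set these genes beside others of their pathway, lists of their partners were read at the brightest probe of each gene. Among 18 extracellular partners of neurexins and LRRTMs, 6 were higher, 1 was lower and 11 were not past the threshold, with a median log2 fold change of 0.40, beside -0.11 for all 19698 genes. The counts in this and the other lists stand beside 21.2% of all genes higher and 20.4% lower at the brightest probe. Dag1, which encodes dystroglycan, read 6840 and 7560 with CPEB2 IgG, against 654 and 511.5 with control IgG (log2 3.69 ± 0.25, adjusted p = 0.00543). Clstn3, which encodes calsyntenin-3, read 59070 and 29605 against 4466 and 3883 (log2 3.38 ± 0.30, adjusted p = 0.00543). Both were far higher with CPEB2 IgG in both experiments. Nxph3, which encodes the secreted neurexin ligand neurexophilin-3, was lower, with 1341 and 1856 against 2519 and 3972 (log2 -0.95 ± 0.24, adjusted p = 0.0328). This call was lost without the replicate block (adjusted p = 0.0793). It was also lost with median centring and with centring within GC bins, where the log2 fold change was -0.57.

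Among 10 intracellular partners, which link neurexins and neuroligins to scaffolds and vesicle release, 1 was higher and 3 were lower, with a median of -0.67. The count of lower genes was 2 with median centring and 5 with no scaling. It was 4 with quantile normalization, without the replicate block or with GC bins. At an unadjusted p under 0.05 by limma, 5 were lower. Lin7c was higher (log2 1.86 ± 0.26, adjusted p = 0.00787), while Lin7b of the same scaffold family was lower (log2 -2.74 ± 0.24, adjusted p = 0.00543), as was Apba2, which encodes the adaptor Mint2 (log2 -1.56 ± 0.28, adjusted p = 0.0134). Gphn, which encodes gephyrin, the third lower gene, was chosen after its values were seen (log2 -1.07 ± 0.26, adjusted p = 0.0298). Of 35 other trans-synaptic adhesion genes on the array, 20 were higher and 15 were not past the threshold, with a median of 0.94. None was lower by limma, nor at an unadjusted p under 0.05. The highest were Lrrc4 (log2 2.94 ± 0.24) and Lrfn3 (2.83 ± 0.25), both postsynaptic leucine-rich repeat proteins, at an adjusted p of 0.00543 each. Of 7 contactin-associated, neurexin-like genes 4 were higher and none was lower, also at an unadjusted p under 0.05, with Cntnap1 at 2.28 ± 0.23 (adjusted p = 0.00551) and Cntnap3 at 1.51 ± 0.25 (0.0110). Among the 3 Khdrbs genes, RNA-binding proteins that regulate neurexin splicing, Khdrbs1 (2.08 ± 0.24, adjusted p = 0.00601) and Khdrbs3 (1.29 ± 0.24, 0.0150) were higher. Khdrbs2 had a log2 fold change of -0.69 ± 0.23 that was not past the threshold (0.0719), and it was past it as lower without the replicate block (0.0428).

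Lrrtm1, Lrrtm2 and Lrrtm3 lie inside introns of the alpha-catenin genes Ctnna2, Ctnna1 and Ctnna3, on the opposite strand. Neither of the 2 host genes tested was higher by limma, nor at an unadjusted p under 0.05. Ctnna2 was lower with CPEB2 IgG, with 3881 and 3924 against 9429 and 8728 (log2 -1.16 ± 0.23, adjusted p = 0.0180). Ctnna1 read 3561 and 3965 against 4768 and 4401 (log2 -0.23 ± 0.23, adjusted p = 0.471). Ctnna3 was not tested, because it was well above background on fewer than 2 arrays.

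**Figure D5:**
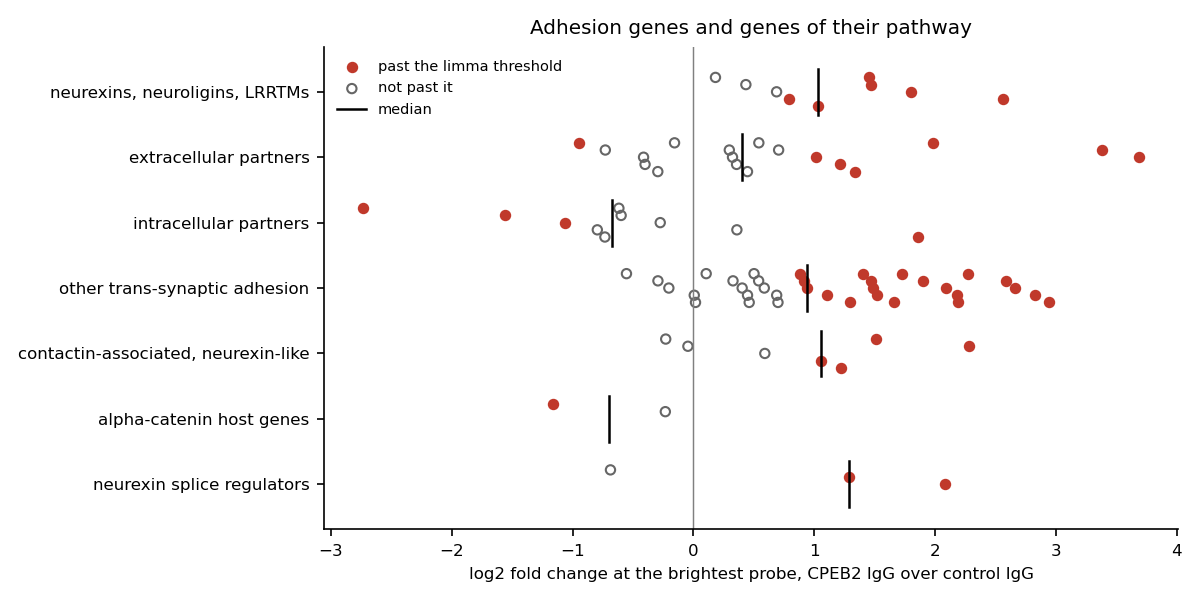
Log2 fold change of CPEB2 IgG over control IgG at the brightest probe of each gene (x axis), for the 9 adhesion genes and 6 lists of genes of their pathway, with genes past the limma threshold filled in red and the median of each list as a black line. The list of other trans-synaptic adhesion genes had its median at 0.94 and the intracellular partners at -0.67.

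The labelled tissue was checked against marker genes. All 7 cortical and hippocampal neuron markers were measured, among them Camk2a and Neurod6, and their mean level on the 2 arrays was 2.25 and 2.51 with CPEB2 IgG, against 2.26 and 2.32 with control IgG, on the scaled log2 scale. Of these, 1 was lower (Tbr1), and none was higher by limma, with 2 higher at an unadjusted p under 0.05. Among 5 astrocyte markers 2 were higher and 2 lower, among 5 oligodendrocyte markers none was higher, also at an unadjusted p under 0.05, and 2 were lower (Mag and Mobp), and among 5 microglia markers 1 was higher and 2 were lower. Without the replicate block Mag and Mobp lost their calls (adjusted p = 0.0614 and 0.122), and the neuron marker Prox1 was past the threshold as higher (0.0382). The mean level of the astrocyte markers was 1.84 to 1.99 with CPEB2 IgG and 1.72 to 1.97 with control IgG, that of the oligodendrocyte markers 2.83 to 3.04 and 3.06 to 3.22, and that of the microglia markers 1.17 to 1.37 and 1.65 to 1.88. The cerebellar markers Gabra6 and Cbln3 and the liver markers Alb and Apoa1 were not above background on 2 arrays. Of the other markers of cerebellum and heart, Pcp2, Calb1 and Myh6 were not past the limma threshold, with 1 of the cerebellar pair at an unadjusted p under 0.05, and Tnnt2 was lower (log2 -2.68). Any part of glial RNA in the results for the adhesion genes was not tested.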

How the data were processed

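RNA from CPEB2 IgG and control IgG immunoprecipitates was measured on 4 arrays. The authors deposited spot intensities from Agilent Feature Extraction 10.5.1.1, background-corrected by that software and not normalized between arrays. Gene names and mm9 coordinates are those of the array annotation. Control spots and 145 to 223 spots per array marked as non-uniform or as outliers were left out, 66 probes with a missing value were dropped, and repeated probes were averaged. Log2 intensities were set to the 75th percentile of each array. CPEB2 IgG was compared with control IgG by limma 3.58.1 in R 4.3.3. The model had a term for the experiment, p-values were adjusted by Benjamini-Hochberg over all probes, genes or transcripts tested, the threshold was 0.05, and the fit was tested on simulated data. The pairing comes from the methods, which divide each lysate between the antibodies, and same-numbered arrays deviated together (correlation 0.206). Partner genes named are the up to 2 highest and 2 lowest past the threshold in each list, with all alpha-catenins, and Gphn and Khdrbs2 were chosen after their values were seen. Python 3.11.15 with numpy 2.4.6, pandas 2.3.3 and matplotlib 3.10.9 did the rest. The members and gene lists were chosen with earlier results of these data known. Other scalings, filters and left-out arrays were tried as alternatives, and the comparison of first and last probes was run under alternatives chosen after seeing the data. One marker gene is not reported here.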

Additional observations from a re-analysis of the deposited data

How the results depend on the processing

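Among the 22 probes of the adhesion genes, the 6 higher calls became 10 with normexp background correction (6884 of all 41137 probes were then higher), 10 with an intensity trend (7223 of all), 10 of 12 with only probes of raw signal above 1000 (4280 of all 11910), 1 at an adjusted p under 0.01, and 2 to 4 with 1 array left out. Without a filter on dim probes limma called 0 of the members and 0 of all 55615 probes in either direction, with 9 members and 16093 probes at an unadjusted p under 0.05. The 6 higher calls of the members became 9 with median centring (7500 of all 41137 probes). They became 4 with another set of probes behind the percentile (4546 of all). With only probes above background on all 4 arrays they became 9 (6345 of all 35365). The 0 lower calls became 1 with normexp. Over all probes, 1691 were higher and 1355 lower at an adjusted p under 0.01, and 2741 to 5010 were higher and 2542 to 6332 lower with 1 array left out. In a paired design without the replicate block, 5432 were higher and 5928 lower, and the lower call among the extracellular partners went to 0, as with median centring and GC bins. Also without the block, 1 splice regulator was lower, and 4 intracellular partners were lower, with Lin7a added (limma adjusted p = 0.0356). Of the other trans-synaptic adhesion genes 21 were then higher, with Tenm1 added (limma adjusted p = 0.0447). Among the marker genes, Mag and Mobp were no longer lower (adjusted p = 0.0614 and 0.122) and Prox1 was higher (0.0382). No call of a member probe changed. With no scaling, 2 extracellular and 5 intracellular partners were lower. Of all transcripts, 0 differed between first and last probe at an adjusted p under 0.01, with 1579 higher and 212 lower at an unadjusted p under 0.05, and 163 were lower at the last probe with GC bins.

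Direction turned only at probes of Nrxn3 and Nlgn1 that were not called. At base 330 of Nrxn3 the log2 fold change was -0.050 with another set of probes behind the percentile and -0.24 to 0.36 with 1 array or 1 pair left out. At base 2218 it was -0.17 without replicate 1, the pair of experiment 1. At base 1098 it was 0.0041 with median centring, 0.27 with GC bins and -0.75 to 0.31 with 1 array or pair left out. At base 3630 it was -0.054 with the other percentile and -0.17 to 0.28. At base 686 of Nlgn1 it was -0.012 with no scaling, -0.066 with the other percentile and -0.22 to 0.30. The difference between the ends of NM_001198587 was -0.092 with GC bins. The cause was not tested. The 6 genes higher at the brightest probe became 5 with quantile normalization, no scaling or the mean of probes, and 7 with median centring. The count of 8 genes past the fold and signal thresholds stayed between 7 and 9.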

Other observations

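Over the whole array, the 1867 tested probes that hold TTTTAT or TTTTAAT had a median log2 fold change of 0.34 for CPEB2 IgG over control IgG, and the tested probes without these letters had a median of -0.22. The 6009 tested probes with AATAAA or ATTAAA had a median of -0.20, as did those without. These medians were looked at after the motifs had been found in the Nrxn3, Nlgn3 and Lrrtm3 probes. They were not tested, and probes of one transcript are not independent of each other. Neither the GC content of a probe nor its place in the transcript was taken into account in these medians.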
